A study of Mus musculus with 157 samples.

Results

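The 10 genes described here encode ligands, receptors and inhibitors of Nodal and activin signalling, with the gene next to one of them: Nodal, Gdf3, Inhba, Inhbb, Acvr2b, Tdgf1, Lrrc2, Lefty1, Lefty2 and Fst. They were chosen by symbol, with earlier results of these data known. All 10 were found in each of 4 tables of RNA polymerase II (Pol II) occupancy, which list 23643 to 23887 gene symbols. The symbols cover 12 transcripts, because Fst is listed as 3 transcripts with identical counts, and each gene is given by its transcript with the highest mean count. The study exposed E14 cells, a wild-type line of mouse embryonic stem (ES) cells kept on gelatin in serum and leukemia inhibitory factor, to 1 µM retinoic acid (RA), which makes ES cells differentiate. Untreated cells (0 h) and cells after 2, 4, 6, 24, 48 and 72 h of RA were crosslinked, and Pol II was immunoprecipitated and its DNA sequenced (ChIP-seq). Total Pol II, precipitated through its N-terminal domain (NTD), was counted over gene bodies and within 1 kb of the transcription start site (TSS) on both sides. The form phosphorylated at serine 5 of the C-terminal repeat (Ser5p), found mostly near the start of genes, was counted at the TSS. The form phosphorylated at serine 2 (Ser2p), carried by elongating Pol II, was counted over gene bodies. NTD libraries number 2 at 0 h, 2 at 2 h, 3 at 4 h, 3 at 6 h, 2 at 24 h, 3 at 48 h and 2 at 72 h, and Ser5p and Ser2p differ in having 3 at 2 h. The libraries at 0 h are replicates 1 and 4 and those at 24 h replicates 2 and 3. Between these times a change with RA and a difference by replicate number cannot be told apart. All come from 1 cell line, and the labels do not say whether libraries of 1 group came from separate cultures, so that p-values measure the spread between these libraries only, which may be technical.

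Nodal, Gdf3 and the activins are secreted ligands of the TGF-beta family. They bind type I and type II receptors, which phosphorylate Smad2 and Smad3, and these enter the nucleus with Smad4 and act with partners such as Foxh1. Nodal and Gdf3 also need a membrane-bound co-receptor such as Cripto, the product of Tdgf1. The Lefty proteins block Nodal, and in the mouse embryo Nodal signalling turns on Nodal itself, Lefty1 and Lefty2. Follistatin, from Fst, binds activins and keeps them from their receptors. In ES cells the pathway is known for its part in the choice between self-renewal and mesendoderm.

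Total counts per library were 1088159 to 3210580 for NTD at the TSS, 1504737 to 3347830 for Ser5p at the TSS, 11684907 to 25696364 for NTD over gene bodies and 18045745 to 28745658 for Ser2p over gene bodies. Values per library are CPM, counts brought to a common library total with TMM factors. Windows at the TSS all have the same length, so CPM at the TSS can be compared between genes. A gene was called changed when edgeR's quasi-likelihood test, fitted over all libraries of a table and adjusted over all its transcripts, gave an adjusted p under 0.05. Log2 changes are given ± their standard error. At the TSS, 2 NTD libraries stood apart from the others: 0 h replicate 4 had 69 transcripts, and 72 h replicate 3 had 47, with at least 4 times the highest level of the remaining libraries plus 0.5 CPM, and none of them belonged to the 10 genes. The other 15 NTD libraries had 0 such transcripts.

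Between 0 h and 48 h of RA the 10 genes moved apart. Total Pol II at the TSS of Lefty1 rose, that of Tdgf1, Lrrc2, Gdf3 and Inhbb fell, and Nodal, Lefty2, Fst, Inhba and Acvr2b passed no threshold. These 5 calls of 10 stand beside 9.58% of all transcripts tested that were called in either direction at 48 h. The list was chosen with earlier results of these data known and holds Lrrc2, so these shares are no test of the pathway. No member was called at 2, 4 or 6 h by edgeR or by DESeq2, where edgeR called 0.32%, 0.709% and 0.728% of transcripts, and 2, 0 and 2 members had an unadjusted p under 0.05. The other 3 measurements called 0 members at these times as well, where 0 to 3 members had such a p. Of all transcripts Ser5p called 0.0305%, 0.0153% and 0.0549%, NTD over bodies 0.0%, 0.0188% and 0.0691%, and Ser2p 0.0% at each of these times. At 24 h only Lefty1 was called, against 1.52% of transcripts. Tdgf1, Lrrc2, Gdf3 and Inhbb were called lower at 72 h, against 9.13% of transcripts in either direction. The median log2 change of the 10 genes was -0.18 at 48 h, beside -0.03 over all transcripts tested, and -0.39 at 72 h, beside -0.04. The test over all 7 times called 8 of the 10 genes, all but Inhba and Acvr2b, against 14.9% of all transcripts.

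**Figure D1:**
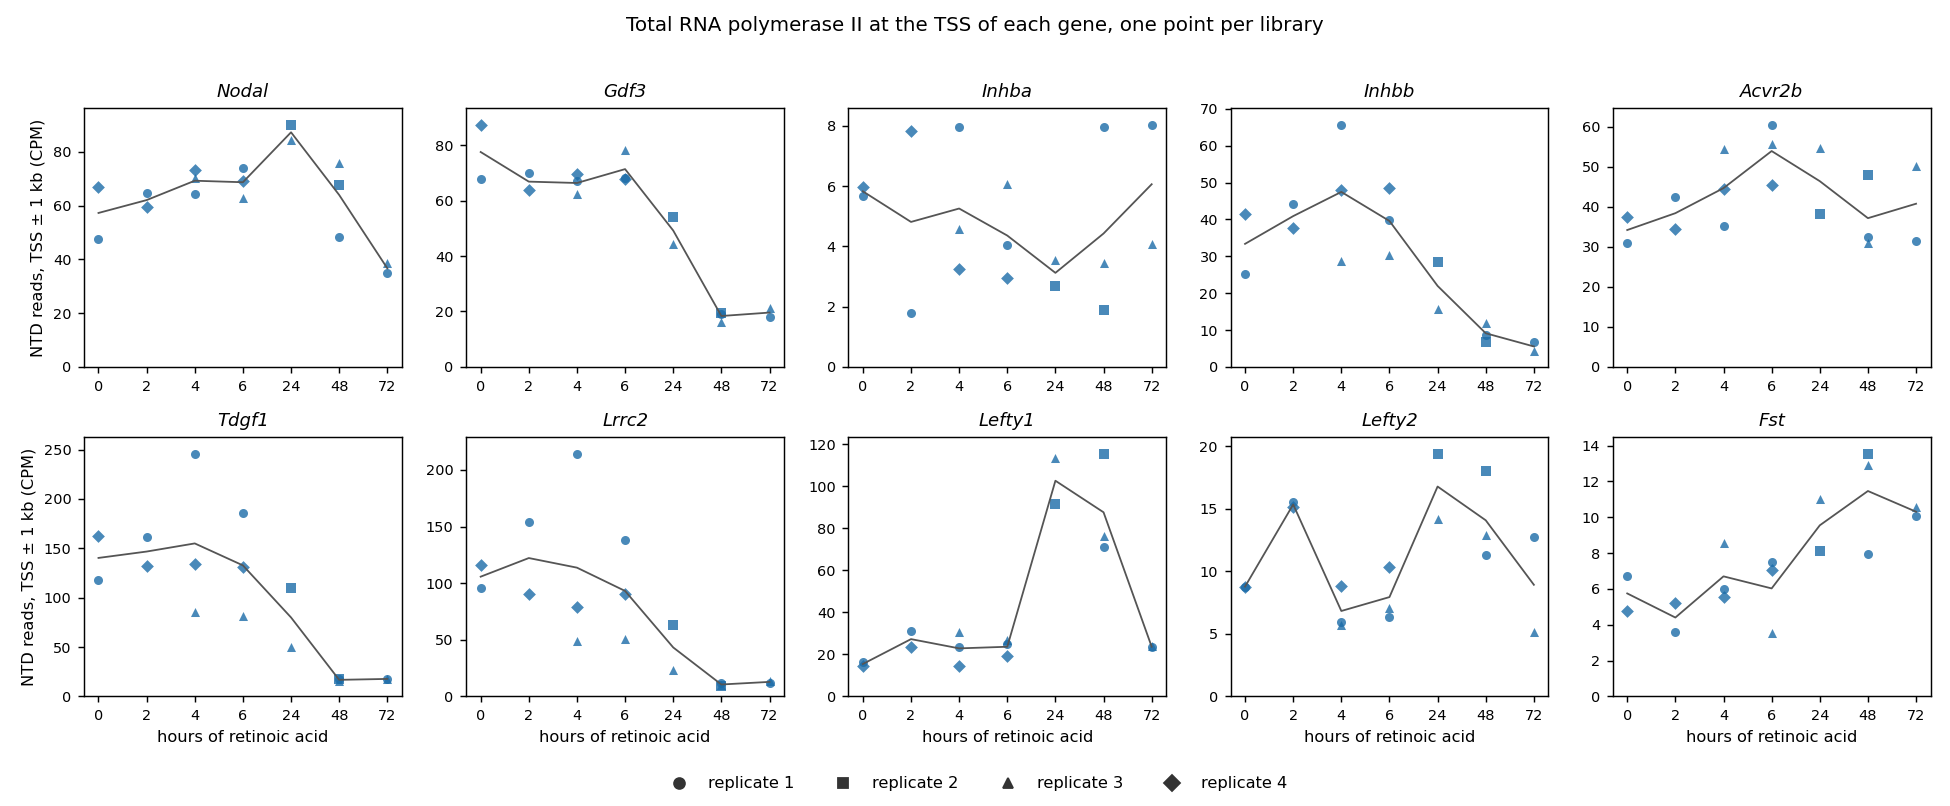
Total Pol II (NTD) reads in the 2 kb window around the TSS of each of the 10 genes, in CPM (vertical axis, a scale of its own in each panel), against hours of RA (horizontal axis, evenly spaced). Each point is 1 library and the line joins the means of the times. Lefty1 is high at 24 and 48 h only, with 71.1 to 115 CPM, while Tdgf1, Lrrc2, Gdf3 and Inhbb are low at 48 and 72 h.

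The order of the 10 genes by Pol II at the TSS changed with the treatment. At 48 h Lefty1 was highest with a mean of 87.6 ± 24.1 CPM (SD, n = 3), followed by Nodal with 63.9 ± 13.98 CPM and Acvr2b with 37.2 ± 9.45 CPM. At 0 h Tdgf1 was highest with 140.3 ± 31.1 CPM (SD, n = 2), followed by Lrrc2 with 106 ± 14.5, Gdf3 with 77.5 ± 13.9 and Nodal with 57.2 ± 13.8 CPM. Lefty1 and Nodal overlapped at 48 h, while at 0 h the libraries of neighbours among these 4 genes did not overlap, with Tdgf1 and Lrrc2 no further apart than 118 and 116 CPM and Gdf3 and Nodal no further than 67.7 and 67.0 CPM. Among all gene symbols of the table, Lefty1 stood at percentile 94.2 at 48 h, against 55.9 at 0 h, while Tdgf1 stood at percentile 56.5 at 48 h, against 97.6 at 0 h. The median gene had 12.8 CPM at 48 h and 12.0 CPM at 0 h, so that Tdgf1 kept a level a little above the median and Lrrc2, at percentile 45.3, a level just below it. Inhba and Fst were the lowest at 0 h, at percentiles 22.3 and 21.7.

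Over gene bodies, levels between genes can be compared in the authors' FPKM, which divides by library size and by length. By this measure of total Pol II, Lefty1 led the members at 48 h with 12.4 ± 6.16 FPKM (SD, n = 3), before Nodal with 4.49 ± 1.63 and Gdf3 with 3.60 ± 1.12 FPKM. At 0 h Gdf3 led with 12.5 ± 2.19 FPKM (SD, n = 2), before Tdgf1 with 5.32 ± 1.34, Inhbb with 3.50 ± 0.719 and Nodal with 3.01 ± 0.133 FPKM. Inhba was the lowest at both times, with 0.613 ± 0.011 FPKM at 48 h and 0.572 ± 0.014 FPKM at 0 h.

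Among the ligands, Nodal (chr10:61417972-61425338, mm10) is the founding member of the pathway. Its TSS carried 47.5 and 67.0 CPM of NTD at 0 h, 64.5 and 59.6 at 2 h, 64.2, 70.4 and 73.1 at 4 h, 73.8, 62.9 and 69.3 at 6 h, 90.0 and 84.4 at 24 h, 48.5, 67.6 and 75.7 at 48 h, then 34.8 and 38.5 at 72 h. Both 24 h libraries lie above every other library, and both 72 h libraries lie below every other one. The changes of NTD against 0 h were not called at any time, with log2 changes of 0.60 ± 0.20 at 24 h (adjusted p = 0.13), 0.15 ± 0.19 at 48 h (adjusted p = 0.75) and -0.64 ± 0.22 at 72 h (adjusted p = 0.056). The comparison of 72 h with 24 h, added after these levels were seen, gave -1.24 ± 0.21 (adjusted p = 0.00026), where 3.01% of transcripts were called in either direction. Since this comparison was picked from the levels, its p-values do not have their usual meaning, here and for the other members. In Ser5p, Nodal had 83.3 and 76.4 CPM at 24 h against 44.9 and 43.9 CPM at 0 h, a rise of 0.84 ± 0.24 on the log2 scale (adjusted p = 0.032). In Ser2p over the body it had 18.1 and 22.8 CPM at 24 h against 9.69 and 6.31 CPM at 0 h, a rise of 1.36 ± 0.29 (adjusted p = 0.021). These groups do not overlap, but both calls are lost without 0 h replicate 4 or without 24 h replicate 3, and with the replicate number as a block, and that of Ser5p also without 0 h replicate 1 or 24 h replicate 2. Ser5p was already above both 0 h libraries at 2 h, with 58.4, 80.0 and 68.5 CPM, and at 6 h, with 55.7, 61.1 and 68.9 CPM. Ser2p at 6 h was 16.0, 14.6 and 12.6 CPM. In a comparison that was not planned, NTD at the TSS at 24 h over 6 h changed by 0.34 ± 0.18. This was not called (adjusted p = 0.70), where 0.069% of transcripts were. At 24 h 6.73% of transcripts were called in Ser5p and 13.0% in Ser2p.

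Gdf3 (chr6:122605403-122610087, mm10), a ligand that is highly transcribed in undifferentiated ES cells, was called lower in NTD at the TSS at 48 and 72 h. At its TSS NTD stood at 67.7 and 87.3 CPM at 0 h, 69.9 and 63.7 at 2 h, 67.2, 62.4 and 69.4 at 4 h, 68.0, 78.1 and 67.8 at 6 h, 54.0 and 44.3 at 24 h, 19.3, 19.5 and 16.3 at 48 h, then 18.1 and 21.1 at 72 h. All libraries up to 6 h lie above both 24 h libraries, and these lie above all later ones. The log2 change was -2.06 ± 0.20 at 48 h (adjusted p = 5.7e-10) and -1.96 ± 0.22 at 72 h (adjusted p = 1.9e-08), and that at 24 h was not called (-0.67 ± 0.20, adjusted p = 0.066). Gdf3 also fell at 48 h in Ser5p, by 1.29 ± 0.21 on the log2 scale (adjusted p = 7.5e-05), and in NTD over the body, by 1.80 ± 0.23 (adjusted p = 0.00049). In Ser2p over the body it had 5.41, 9.74 and 5.95 CPM at 48 h against 12.0 and 8.50 CPM at 0 h. These overlap, and the change of -0.54 ± 0.32 was not called by edgeR (adjusted p = 0.40).

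Inhbb (chr1:119415463-119422248, mm10) encodes the beta B subunit, which forms activin B as a pair. NTD at its TSS amounted to 25.3 and 41.5 CPM at 0 h, 44.2 and 37.6 at 2 h, 65.7, 28.6 and 48.1 at 4 h, 39.8, 30.4 and 48.5 at 6 h, 28.4 and 15.6 at 24 h, 8.63, 6.76 and 12.0 at 48 h, then 6.70 and 4.43 at 72 h. No library from 0 to 24 h is as low as any library at 48 or 72 h. The fall was 1.97 ± 0.32 on the log2 scale at 48 h (adjusted p = 1.7e-05) and 2.67 ± 0.38 at 72 h (adjusted p = 1.8e-06). Unlike Gdf3, Inhbb was called lower by edgeR in all 4 measurements at both times. In Ser2p over the body, where the fall was smallest, it had 4.89, 5.33 and 4.74 CPM at 48 h against 10.3 and 9.22 CPM at 0 h, a log2 change of -0.97 ± 0.17 (adjusted p = 0.0099). That call is lost without either 0 h library, but the comparison of 48 h with 6 h, which uses neither, gave -1.59 ± 0.15 (adjusted p = 3.5e-05), where 5.43% of transcripts were called in Ser2p in either direction.

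Inhba (chr13:16004256-16031609, mm10), which encodes the beta A subunit of activin A, had little Pol II at any time. Its NTD counts at the TSS ranged from 3 to 16 reads in a library, or 1.79 to 8.04 CPM, and no comparison with 0 h was called in any of the 4 measurements. With so few reads the standard error of its log2 change at the TSS at 48 h was 0.56, against 0.19 for Nodal.

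Among the receptors, Acvr2b (chr9:119401583-119442148, mm10), a type II receptor that binds activin and Nodal, showed no call at the TSS at any time. NTD at its TSS ranged from 31.0 to 60.5 CPM over the 17 libraries, with 32.5, 48.1 and 31.0 CPM at 48 h against 31.0 and 37.5 CPM at 0 h. The groups overlap, and the log2 change was 0.16 ± 0.23 (adjusted p = 0.78). Its sole call against 0 h was in Ser2p over the body at 24 h, with 27.0 and 28.0 CPM against 22.8 and 22.6 CPM at 0 h, a log2 change of 0.28 ± 0.09 (adjusted p = 0.047), which is lost in 7 of 13 alternatives.

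The co-receptor gene Tdgf1 (chr9:110939608-110946158, minus strand, mm10) encodes Cripto, which lets Nodal and Gdf3 engage the activin receptors. Its nearest neighbour upstream is Lrrc2 (chr9:110951545-110984066, plus strand, mm10), which encodes a leucine-rich repeat protein and has no known part in the pathway. Both genes are transcribed away from each other. Their start sites lie 5387 bases apart, and the 2 kb windows around them are separated by 3387 bases, so that no read was counted in both windows. The 250 bases before each start are printed because Pol II changed together at these starts. They come from RefSeq sequence of the same build (GRCm38.p6), at chr9:110946159-110946408 on the minus strand for Tdgf1 and chr9:110951295-110951544 on the plus strand for Lrrc2. Each is written 5′ to 3′ in the direction of its gene, and capitals mark the motif matches named after them.
Tdgf1: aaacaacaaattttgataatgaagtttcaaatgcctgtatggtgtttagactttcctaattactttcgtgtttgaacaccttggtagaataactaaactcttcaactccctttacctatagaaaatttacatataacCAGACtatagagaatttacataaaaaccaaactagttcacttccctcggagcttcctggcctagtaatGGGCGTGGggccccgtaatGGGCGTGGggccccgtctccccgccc
Lrrc2: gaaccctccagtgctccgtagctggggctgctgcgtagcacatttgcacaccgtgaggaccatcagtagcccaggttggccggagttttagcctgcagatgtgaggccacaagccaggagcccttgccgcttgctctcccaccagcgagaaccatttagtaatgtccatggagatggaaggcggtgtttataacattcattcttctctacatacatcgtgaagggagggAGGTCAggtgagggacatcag
The Tdgf1 stretch holds CAGAC, the box bound by Smad proteins, at position -113 from the start, and GGGCGTGG, a GC-rich box of the kind bound by Klf proteins, at -45 and -26, in a repeat seen by eye before it was searched. The Lrrc2 stretch holds AGGTCA, the hexamer that retinoic acid receptors and other nuclear receptors bind in pairs, at -21. Both strands were searched, and the matches do not overlap. Of 32851 promoters of this length 42.2% hold CAGAC, 4.79% GGGCGTGG and 14.02% AGGTCA, so that matches of the short motifs are common. TGTGNATT, the core bound by Foxh1, and the octamer ATGCAAAT, held by 3.18% and 1.60% of promoters, are not in either stretch. Of the other members, Nodal, Inhbb, Inhba and Acvr2b have a promoter in the RefSeq table used, and among these the 5 motifs matched only CAGAC in Acvr2b, at -233. The share of G and C is 42.0% in the Tdgf1 stretch and 54.8% in that of Lrrc2, beside a median of 52.4% over all promoters.

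Tdgf1 and Lrrc2 had the lowest log2 changes of the 10 genes at the TSS at 48 h. At the Tdgf1 TSS NTD was 118 and 162 CPM at 0 h, 161 and 132 at 2 h, 245, 85.8 and 134 at 4 h, 186, 81.7 and 131 at 6 h, 110.3 and 49.7 at 24 h, 17.3, 17.6 and 15.5 at 48 h, then 17.4 and 18.1 at 72 h. At the Lrrc2 TSS it was 95.6 and 116 CPM at 0 h, 154 and 90.4 at 2 h, 214, 48.6 and 78.6 at 4 h, 138, 50.7 and 90.4 at 6 h, 63.5 and 23.1 at 24 h, 12.0, 9.39 and 10.3 at 48 h, then 12.1 and 13.6 at 72 h. For both genes each library at 48 and 72 h lies below each earlier library, and the values at 48 and 72 h overlap or lie within a few CPM. The log2 change at 48 h was -3.05 ± 0.32 for Tdgf1 (adjusted p = 1.6e-09) and -3.34 ± 0.41 for Lrrc2 (adjusted p = 6.7e-08). Against 6 h, where the 0 h libraries play no part, it was -2.96 ± 0.30 (adjusted p = 7.5e-10) and -3.15 ± 0.39 (adjusted p = 8.2e-08), and 10.1% of transcripts were called in either direction.

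Libraries of the same time differed widely at Tdgf1 and Lrrc2 up to 24 h. At 4 h Tdgf1 had 245 CPM in replicate 1 and 85.8 CPM in replicate 3, and Lrrc2 had 214 and 48.6 CPM in these libraries. Replicate 1 was also the highest and replicate 3 the lowest at 6 h for both genes. Ser5p at the Tdgf1 TSS was in the same order, with 259, 85.9 and 123 CPM at 4 h and 202, 88.9 and 132 CPM at 6 h in replicates 1, 3 and 4. At 24 h replicate 2 had 110.3 CPM of NTD at Tdgf1 and replicate 3 had 49.7 CPM, and Inhbb had 28.4 and 15.6 CPM in these libraries. This order by replicate number was noticed after the values were seen. At Gdf3 replicate 3 was the lowest at 4 h, with 62.4 CPM against 67.2 and 69.4 CPM in replicates 1 and 4, and at 24 h, with 44.3 CPM against 54.0 CPM in replicate 2, but it was the highest at 6 h, with 78.1 CPM against 68.0 and 67.8 CPM in replicates 1 and 4.

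**Figure D2:**
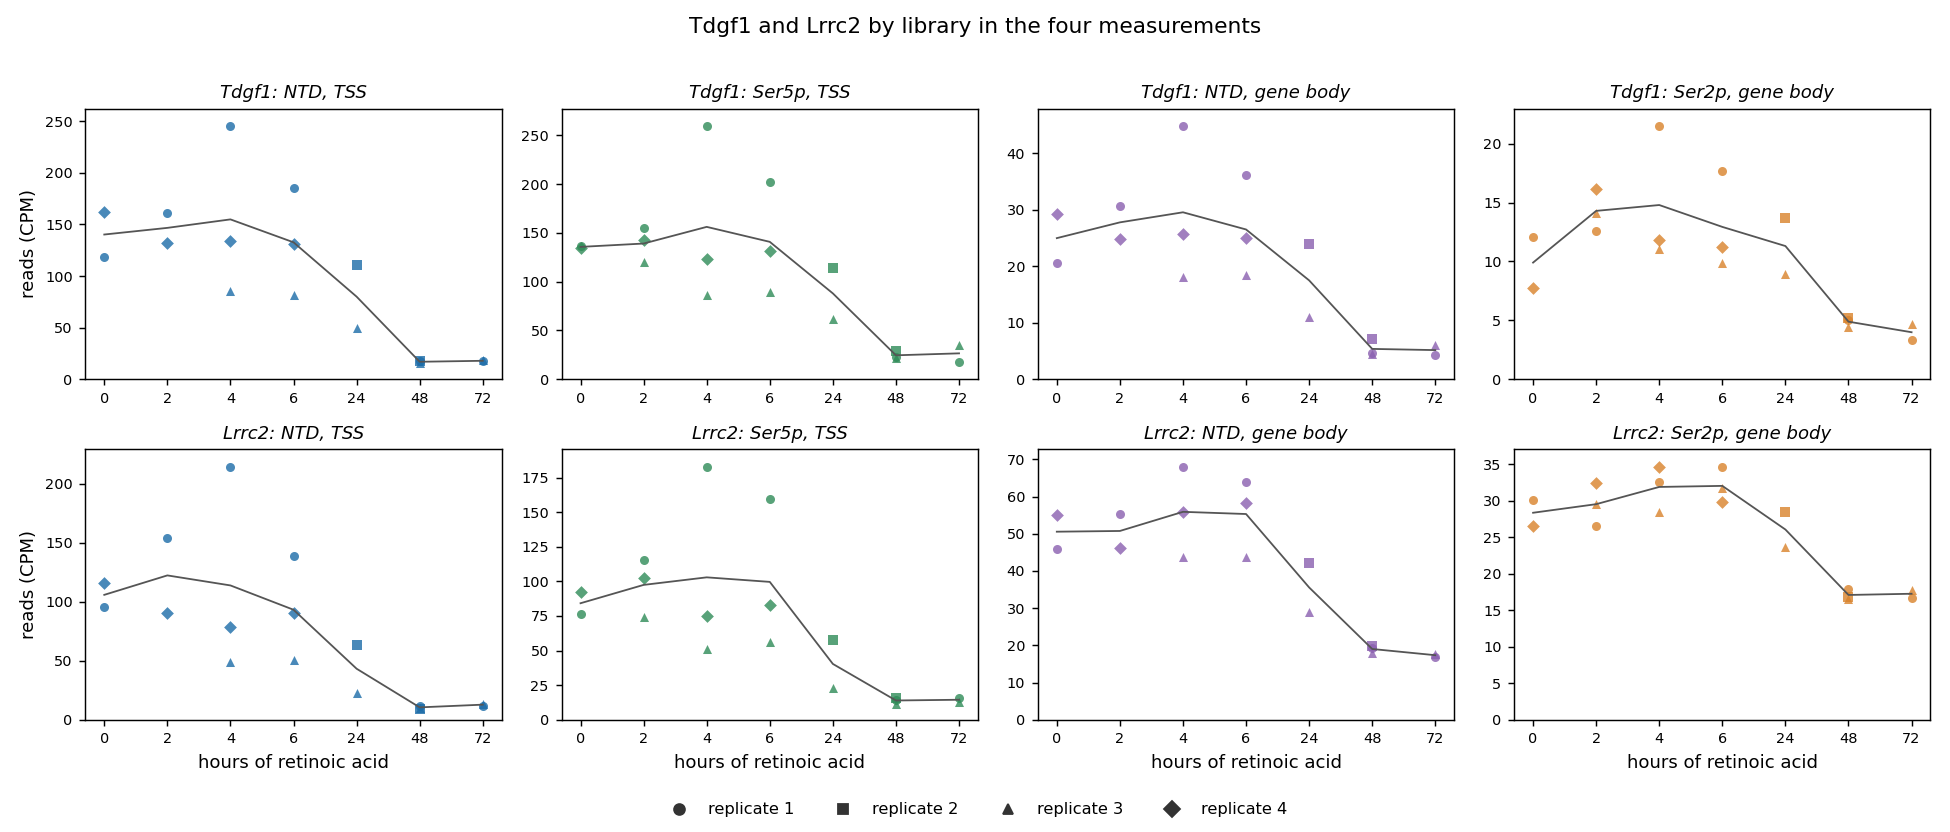
Reads at Tdgf1 (upper row) and Lrrc2 (lower row) in the 4 measurements, in CPM (vertical axis, a scale of its own in each panel), against hours of RA (horizontal axis, evenly spaced). Each point is 1 library, its shape gives the replicate number, and lines join the means. At 4 h replicate 1 lies far above replicate 3 at both TSSs, and at 48 and 72 h the libraries come together at the low end.

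In Ser5p both neighbouring genes fell too. Tdgf1 had 23.1, 28.4 and 21.7 CPM at 48 h against 137 and 135 CPM at 0 h, a fall of 2.47 ± 0.33 on the log2 scale (adjusted p = 3.1e-06). Lrrc2 had 14.6, 16.0 and 11.3 CPM at 48 h against 76.4 and 92.1 CPM at 0 h, a fall of 2.58 ± 0.39 (adjusted p = 1.7e-05). Over the gene bodies NTD fell at 48 h by 2.20 ± 0.40 at Tdgf1 (adjusted p = 0.0059), a call lost without 0 h replicate 4, and by 1.41 ± 0.19 at Lrrc2 (adjusted p = 0.00087). In Ser2p over the body Lrrc2 had 18.0, 16.8 and 16.5 CPM at 48 h against 30.1 and 26.6 CPM at 0 h, a fall of 0.73 ± 0.11 (adjusted p = 0.0022) that is lost without 0 h replicate 1. Tdgf1 had 4.98, 5.23 and 4.42 CPM of Ser2p at 48 h against 12.1 and 7.70 CPM at 0 h. These groups do not overlap, yet the change of -1.01 ± 0.32 was not called (adjusted p = 0.12), while that against 6 h was (-1.40 ± 0.29, adjusted p = 0.0092).

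Among the inhibitors, Lefty1 (chr1:180935022-180938401, mm10) is a secreted antagonist of Nodal and a direct target of its signalling. At its TSS NTD was 16.5 and 14.4 CPM at 0 h, 31.1 and 23.5 at 2 h, 23.4, 30.9 and 14.3 at 4 h, 24.8, 26.9 and 19.3 at 6 h, 91.8 and 114 at 24 h, 71.1, 115 and 76.6 at 48 h, then 23.4 and 23.9 at 72 h. The 24 and 48 h libraries lie above all others, and the 72 h libraries fall within the range of those at 2 to 6 h. The log2 change was 2.74 ± 0.26 at 24 h (adjusted p = 9.3e-10) and 2.54 ± 0.25 at 48 h (adjusted p = 6.3e-10), and 0.62 ± 0.30 at 72 h was not called (adjusted p = 0.22). At 72 h Lefty1 was lower than at 24 h, with a log2 change of -2.12 ± 0.25 (adjusted p = 1.8e-07), in the comparison added after the levels were seen.

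Lefty1 was the one member called higher in all 4 measurements at both 24 and 48 h. Ser5p at its TSS was 95.0 and 122 CPM at 24 h, against 21.3 and 18.9 CPM at 0 h, a log2 change of 2.43 ± 0.28 (adjusted p = 1.3e-06). Over its body NTD was 31.8 and 41.0 CPM at 24 h, against 4.13 and 3.31 CPM at 0 h, a log2 change of 3.30 ± 0.40 (adjusted p = 0.0019), where 0.27% of transcripts were called. Ser2p was 17.2 and 25.2 CPM at 24 h, against 3.68 and 2.31 CPM at 0 h, a log2 change of 2.83 ± 0.37 (adjusted p = 0.003). The groups do not overlap in any of these, but the 24 h calls over the body rest on few libraries: that of NTD is lost without either 0 h library, and that of Ser2p without 0 h replicate 4 or 24 h replicate 3. At 48 h replicate 2 was the highest in all 4 measurements, with 115 CPM against 71.1 and 76.6 CPM of NTD at the TSS, and 45.7 CPM against 18.0 and 24.9 CPM of NTD over the body. Lefty1 is short, with a body of 3363 bases as the tables count it, and 1 kb of that lies in the TSS window too, so that both measurements share reads.

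Lefty2 (chr1:180893108-180899107, mm10) lies near Lefty1 on chromosome 1, with 35915 bases between them, and encodes a closely related Nodal antagonist. In NTD at the TSS each of its libraries lay below all Lefty1 libraries of the same time, whereas in Ser5p the 0 h libraries overlapped, with 17.1 and 21.9 CPM for Lefty2 and 21.3 and 18.9 CPM for Lefty1. NTD at the Lefty2 TSS was 19.4 and 14.2 CPM at 24 h and 11.3, 18.0 and 12.9 CPM at 48 h, against 8.78 and 8.77 CPM at 0 h. The groups do not overlap with 0 h, but 2 h, with 15.5 and 15.2 CPM, was as high, and neither the log2 change of 0.91 ± 0.33 at 24 h (adjusted p = 0.15) nor that of 0.74 ± 0.32 at 48 h (adjusted p = 0.15) was called. The test over all 7 times called Lefty2 (adjusted p = 0.0027). In Ser5p, where Lefty2 had 18.2, 24.3 and 13.2 CPM at 48 h against 17.1 and 21.9 CPM at 0 h, the groups overlap. Lefty genes are close paralogs, and how reads that match both were placed is not stated beyond the unique mapping named in track labels, so their counts may each miss reads.

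Fst (chr13:114452262-114458989, mm10) had 12 to 36 reads, or 7.97, 13.5 and 12.9 CPM, of NTD at its TSS at 48 h, against 6.71 and 4.78 CPM at 0 h. The groups do not overlap, and the log2 change of 1.04 ± 0.37 was not called (adjusted p = 0.064). The test over all times called it (adjusted p = 0.034). In Ser5p its 0 h libraries were far apart, at 15.3 and 43.9 CPM, and those at 48 h, at 17.0, 13.7 and 20.3 CPM, lay between or below them.

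**Figure D3:**
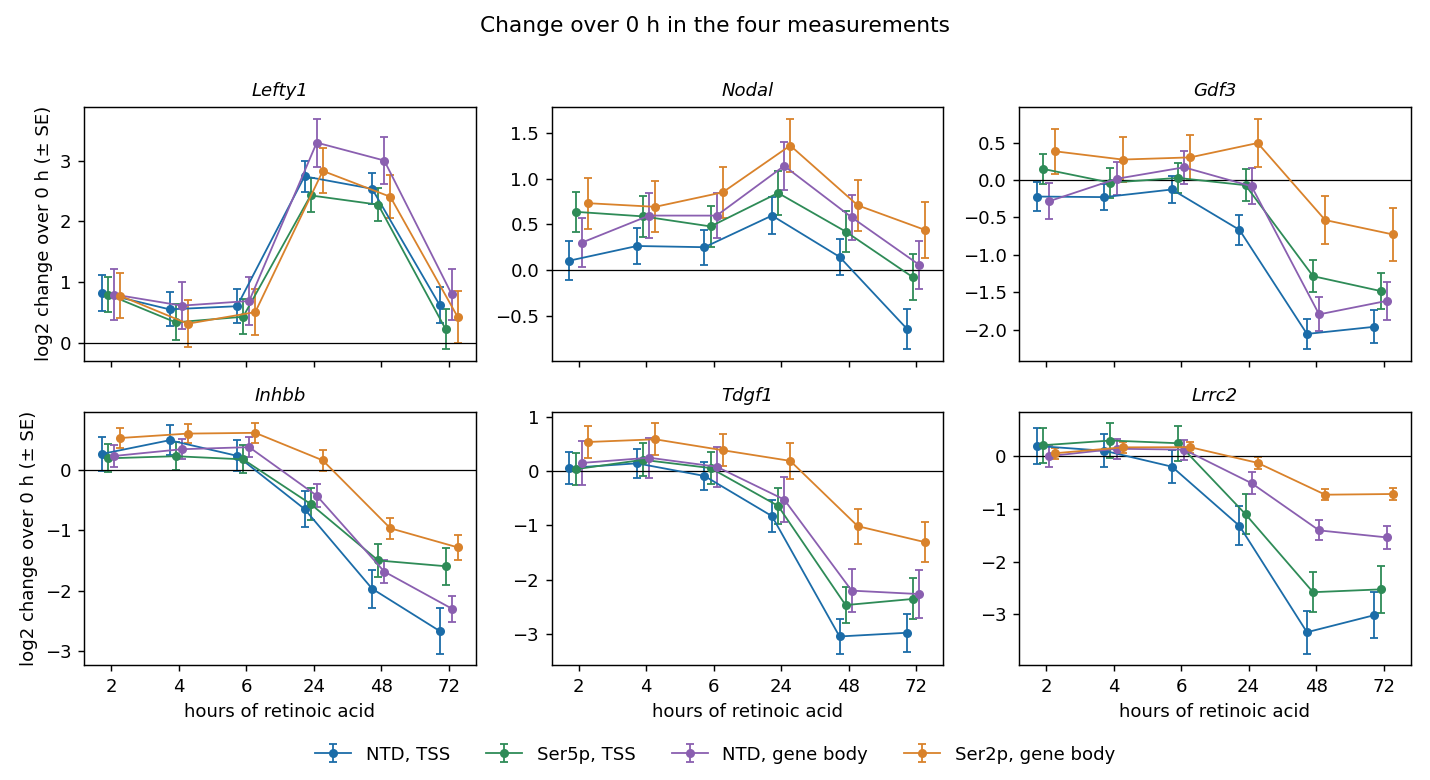
Log2 change over 0 h (vertical axis) against hours of RA (horizontal axis) in the 4 measurements, for Lefty1, Nodal, Gdf3, Inhbb, Tdgf1 and Lrrc2. Points are the edgeR estimates and bars their standard errors. Lefty1 stands at 2.27 to 3.00 at 48 h in all 4 measurements, and the 4 genes with falling Pol II reach lower values at the TSS than in Ser2p over the body.

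In the other 3 measurements no other members than these 5 were called at 48 and 72 h, while at 24 h Ser5p called Lefty1 and Nodal and Ser2p called Lefty1, Nodal and Acvr2b. At 48 h against 0 h Ser5p called the same 5 members as NTD at the TSS, where 12.2% of transcripts were called, and so did NTD over the body, where 3.75% were. Ser2p called 3 members at 48 h, Lefty1, Lrrc2 and Inhbb, where 1.76% of transcripts were called, and Lrrc2 and Inhbb at 72 h, where 1.62% were. At 72 h Tdgf1, Lrrc2, Inhbb and Gdf3 were called in Ser5p and in NTD over the body, where 8.95% and 4.52% of transcripts were. Against 6 h the same 5 members were called at 48 h in Ser5p, where 7.02% of transcripts were called, and in NTD over the body, where 9.76% were. In the added comparison of 72 h with 24 h, Lefty1, Nodal, Tdgf1 and Gdf3 were called lower in Ser5p, against 1.22% of transcripts, Lefty1, Lrrc2, Inhbb and Gdf3 in NTD over the body, against 1.44%, and Lefty1, Lrrc2 and Inhbb in Ser2p, against 1.48%. Over all 7 times the test called 6 members in Ser5p, 5 in NTD over the body and 4 in Ser2p, against 14.5%, 7.81% and 7.53% of transcripts. Whether a phosphorylated form changed by another amount than total Pol II was tested as an interaction of antibody and time, and edgeR called 0 of the 10 members at 48 h over 0 h, with 2 members under an unadjusted p of 0.05 for Ser5p and 4 for Ser2p. That fit took the libraries of both antibodies as independent, although NTD and Ser5p of the same time and replicate number ran alike at Tdgf1. Its p-values therefore do not use a pairing of the libraries. For Ser5p against NTD, 0.341% of transcripts were called, and the closest members were Fst, with a log2 difference of -1.79 ± 0.56 (adjusted p = 0.17), and Gdf3, with 0.77 ± 0.29 (adjusted p = 0.34). For Ser2p against NTD over the body, 0.0% of transcripts were called at 48 h over 0 h and 0.00931% at 48 h over 6 h. The difference at 48 h over 0 h was 1.26 ± 0.42 for Gdf3, 1.18 ± 0.57 for Tdgf1 and 0.72 ± 0.27 for Inhbb, each with an adjusted p of 0.97, so that the smaller fall of Ser2p was not shown to differ from that of total Pol II. Mean Ser2p over the body at 48 h was 0.771 FPKM at Lrrc2, 1.08 at Inhbb, 1.09 at Tdgf1 and 2.21 at Gdf3, beside 0.788 FPKM at Inhba. The part of background reads in the smaller falls of Ser2p was not tested. All comparisons with 0 h share the same 0 h libraries.

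The authors' deposited table of shrunken log2 changes has the same direction for the 5 called members. For NTD at the TSS at 48 h over 0 h, the authors' deposited table gives 1.26 for Lefty1 (adjusted p = 9.59e-06), -2.05 for Tdgf1, -1.65 for Lrrc2, -1.42 for Gdf3 and -1.19 for Inhbb. For Lefty1 at 72 h the authors' deposited table gives -0.26 (adjusted p = 0.73), where the fit described here gives 0.62, and neither value passed the threshold. Signs also differ for NTD over the body. The authors give -0.32 at Lefty1 at 72 h, against 0.80 here, and -0.04 at Nodal at 48 h, against 0.58 here. None of these passed the threshold, and why the signs differ was not tested. For Ser2p over the body at 48 h the authors' deposited table gives -0.41 for Gdf3 (adjusted p = 0.028) and -0.56 for Tdgf1 (adjusted p = 0.032). At 72 h it gives -0.46 for Gdf3 (adjusted p = 0.023) and -0.61 for Tdgf1 (adjusted p = 0.0086). These values pass the threshold, though edgeR called neither gene in Ser2p at these times. DESeq2, refitted here, called 4 members in Ser2p at 48 h, where edgeR called 3, and the share of all transcripts that DESeq2 called was not counted.

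The ratio of NTD over the body to NTD at the TSS was compared within libraries with limma, on log2(CPM + 0.5). It was higher at 48 h for Lrrc2, with a mean log2 ratio of 0.83 ± 0.19 (SD, n = 3) against -1.06 ± 0.01 at 0 h (SD, n = 2), a difference of 1.88 (adjusted p = 0.043). For Tdgf1 it was -1.59 ± 0.29 at 48 h against -2.47 ± 0.03 at 0 h, a difference of 0.88 (adjusted p = 0.042). The groups do not overlap, and 0.505% of transcripts were called. Both calls stand close to the threshold: that of Tdgf1 is lost in 7 of 9 alternatives and that of Lrrc2 in 8 of 9, among them a pseudocount of 0.1, no filter on low counts and the replicate block. At 48 h Lrrc2 was also low, with 12 to 25 NTD reads in a library at the TSS. Its body had 0.821 ± 0.046 FPKM, beside 0.613 ± 0.011 FPKM for Inhba. Input was not used, and the part of background reads in these ratios was not tested. For Gdf3 the log2 ratio was -0.63 ± 0.35 at 48 h against -0.88 ± 0.02 at 0 h, and for Lefty1 it was -1.63 ± 0.31 at 48 h against -1.92 ± 0.06 at 0 h, and neither was called. The ratio was called by limma for 0 members at 24 h, at 72 h and at 48 h over 6 h, where 0.0%, 0.225% and 0.261% of transcripts were called and 3, 3 and 4 members had an unadjusted p under 0.05.

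**Figure D4:**
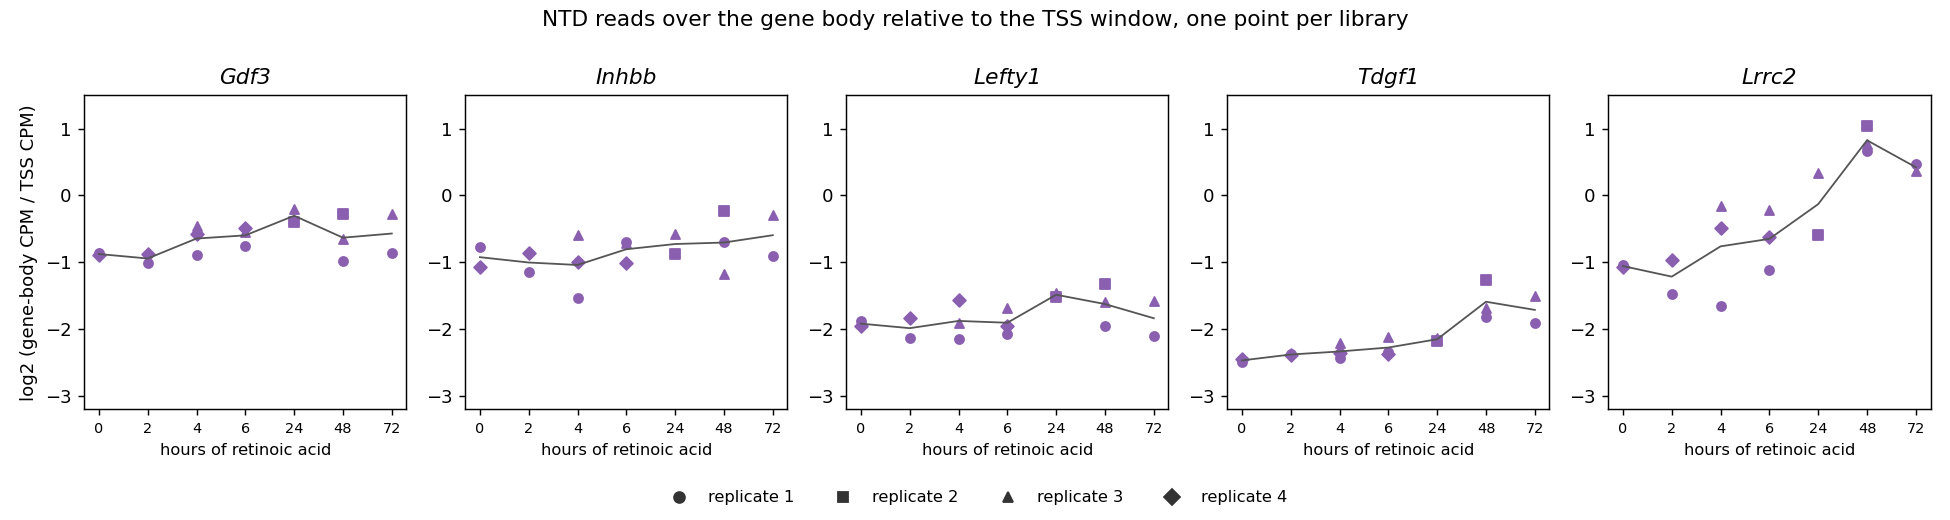
Log2 ratio of total Pol II over the gene body to total Pol II at the TSS (vertical axis) against hours of RA (horizontal axis) for 5 members. Each point is 1 NTD library, its shape gives the replicate number, and lines join the means. The Lrrc2 mean is 0.83 at 48 h and -1.06 at 0 h, and the ratios of Gdf3 and Inhbb at 48 h spread over more than their change.

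Pol II at the TSS of genes near the members was compared at 48 h with 0 h. Tmem63a, 3885 bases from Lefty1, rose to 27.5 ± 7.91 CPM at 48 h (SD, n = 3), against 12.5 ± 4.19 CPM at 0 h (SD, n = 2), a log2 change of 1.21 ± 0.29 (adjusted p = 0.0033). Apobec1, which encodes an RNA-editing cytidine deaminase and lies 2379 bases from Gdf3, fell to 17.5 ± 1.77 CPM at 48 h, against 45.1 ± 6.31 CPM at 0 h, a log2 change of -1.33 ± 0.22 (adjusted p = 2.0e-05). Dppa3, on the other side of Gdf3, had a change of -0.29 ± 0.39 that was not called. Gli2, the nearest gene on 1 side of Inhbb but 361058 bases away, had a log2 change of -0.78 ± 0.21 (adjusted p = 0.012). Beyond the pair of Tdgf1 and Lrrc2, Rtp3, which lies 869 bases from the end of Lrrc2, had 0.14 ± 0.45, and Fam240a, on the far side of Tdgf1, had -1.16 ± 0.41 (adjusted p = 0.063). The neighbours of Nodal, Inhba, Fst and Acvr2b were not called.

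**Figure D5:**
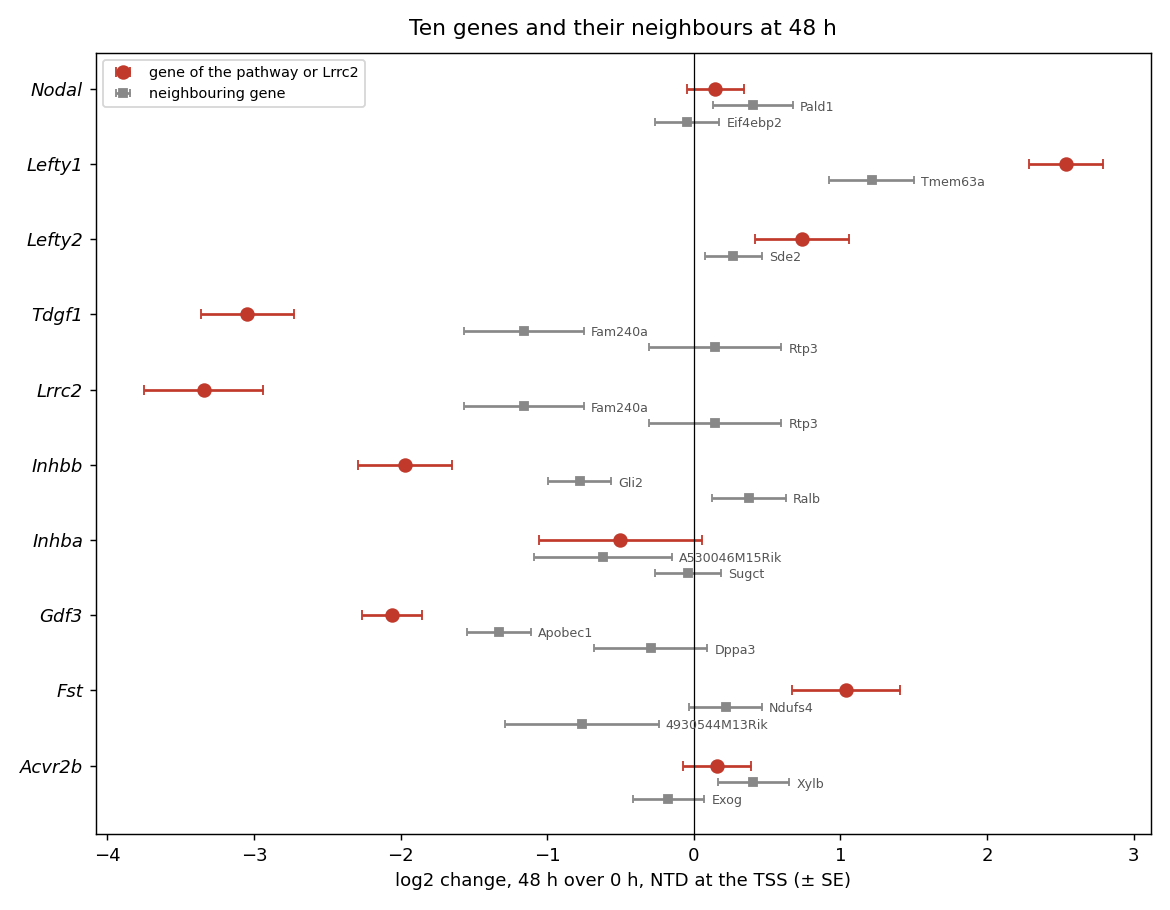
Log2 change of total Pol II at the TSS at 48 h over 0 h (edgeR estimates with standard errors as bars) for the members, in red, and neighbouring genes, in grey. Tmem63a at 1.21 and Apobec1 at -1.33 lie on the same side of 0 as Lefty1 and Gdf3 next to them, with smaller changes.

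Genes whose level at the TSS ran most like that of a member over the 17 NTD libraries were found by Pearson's r of log2(CPM + 0.5) among 17066 genes with a mean of at least 5 CPM. They are a description of libraries that share their times and their depth. For Tdgf1 they were Cnpy1 with an r of 0.969, Trub1 with 0.964 and Nphs1os with 0.961, not counting genes within 10 kb, since Lrrc2 itself had 0.987. For Inhbb they were Mymx with 0.966, Stoml1 with 0.966 and Nphs1os with 0.955. For Lefty1 they were Cercam with 0.886, Dmrt1i with 0.864 and Camsap1 with 0.855. Lefty1 and Nodal had an r of 0.361 and Lefty1 and Lefty2 one of 0.592.

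Of 52 other genes of the pathway, all tested, 3 were called higher and 4 lower at 48 h in NTD at the TSS, where 4.66% of transcripts were called higher and 4.92% lower. Their median log2 change was 0.21. Skil and Ski, which encode repressors of Smad activity, each rose by 1.23 on the log2 scale (adjusted p = 3.3e-05 and 0.0023), and Smad3 rose by 0.90 (adjusted p = 0.004). Inhbe, an inhibin subunit gene, fell by 1.57 (adjusted p = 0.00023), Otx2, a homeobox gene of the epiblast and forebrain, by 1.55 (adjusted p = 0.0013), Tgif1, a Smad corepressor gene, by 1.10 (adjusted p = 0.00049) and Foxh1, the Smad partner gene, by 0.65 (adjusted p = 0.04). By role, 0 of 9 further ligands were higher and 1 was lower, none of 7 receptors and co-receptors and none of 10 genes for processing enzymes and inhibitors was called, 3 of 15 Smads, partners and regulators were higher and 2 lower, and 0 of 11 targets were higher and 1 was lower. At 72 h 4 of the 52 were higher, Ski, Skil, Smad3 and the protease gene Pcsk5, and 0 were lower. Of all transcripts 5.66% were called higher and 3.47% lower at 72 h. In Ser2p over the body 1 of the 52 was called at 48 h, where 1.76% of transcripts were. This was Ski, which was higher with a log2 change of 0.71 ± 0.14 (adjusted p = 0.017).

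Several Nodal target genes were called lower in Ser5p at 48 h over 0 h without a call in total Pol II. In Ser5p 9 of the 11 targets were called lower at 48 h, where 5.37% of transcripts were: Eomes, Gsc, T, Foxa2, Lhx1, Sox17, Fgf8, Fgf5 and Otx2, most of them genes of mesendoderm. None of the 11 was called higher. The interaction of antibody and time was called for 3 of the 11, with a log2 change of Ser5p minus that of NTD of -2.12 ± 0.49 at Eomes (adjusted p = 0.041), -2.48 ± 0.56 at Fgf8 and -2.28 ± 0.51 at Fgf5 (adjusted p = 0.032 each). Of all transcripts 0.341% were called in that test, and its calls at these 3 genes were not refitted under the alternatives. The test did not pair the libraries of both antibodies by time and replicate number. None of the 11 was called in that test for 48 h over 6 h, where 0.0% of transcripts were. None of these 9 targets apart from Otx2 was called lower in NTD at the TSS. The Ser5p calls at the targets rest on the 0 h libraries, and their Ser5p levels at earlier times of RA are not given here. Libraries that stand apart are given for NTD only.

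Markers of the cell types that the cultures could hold were summed over NTD at the TSS. The 8 ES cell markers summed to 380.4 to 406 CPM at 48 h, against 561 to 771 CPM at 0 h, and 4 of the 8 (Pou5f1, Sox2, Zfp42 and Utf1) were called lower. The 7 primitive endoderm markers summed to 102 to 132 CPM at 48 h, against 54.2 to 58.6 CPM at 0 h, and 3 of the 7 (Pdgfra, Dab2 and Col4a1) were called higher. Trophoblast markers (6 genes) summed to 74.4 to 88.6 CPM at 48 h, against 74.9 to 77.5 CPM at 0 h, fibroblast markers (5 genes) to 28.2 to 41.2 CPM, against 29.1 to 40.8 CPM, and neural markers (4 genes) to 89.0 to 104 CPM, against 86.5 to 95.6 CPM. No gene of these lists was at 0 in any library, and 3 markers of 2-cell-like cells summed to 2.63 to 5.31 CPM at 48 h, against 1.03 to 1.59 CPM at 0 h, with up to 2 of them at 0 reads. In Ser5p at the TSS the ES cell markers summed to 368 to 455 CPM at 48 h, against 522 to 588 CPM at 0 h, with the same 4 of 8 called lower. The primitive endoderm sum did not have the direction seen in NTD, with 113 to 163 CPM of Ser5p at 48 h, against 162 to 266 CPM at 0 h, and 5 of the 7 were called lower (Foxa2, Sox17, Gata6, Gata4 and Pdgfra) and 1 higher (Dab2). At 6 h this Ser5p sum was already 99.0 to 162.0 CPM, below the 162.5 CPM of the lower 0 h library. The libraries at 48 h overlapped those at 6 h. In Ser5p trophoblast markers summed to 98.9 to 103 CPM at 48 h, against 131 to 214 CPM at 0 h, with 2 of 6 called lower (Eomes and Cdx2), fibroblast markers to 41.7 to 65.6 CPM, against 55.5 to 60.4 CPM, with none called, and neural markers to 91.6 to 113 CPM, against 97.7 to 146 CPM, with 1 of 4 called lower (Pax6). The 2 markers of 2-cell-like cells listed in that table summed to 5.20 to 8.24 CPM, against 1.85 to 3.66 CPM. Foxa2, Sox17 and Eomes are also among the Nodal targets named before. The part of the ES cell and primitive endoderm markers in the changes of Tdgf1, Lrrc2, Gdf3, Inhbb and Lefty1 was not tested, and in these bulk cultures fewer cells with Pol II at a gene and less Pol II per cell cannot be told apart.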

How the data were processed

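Of 157 labelled samples, 53 had columns in the 4 tables used. Samples of input and of histone marks were not analysed here, and 14 further per-sample columns were not used. Per the submitters' processing notes, mm10, dm6, Bowtie2, SAMtools, MACS2 and DESeq2 were used. No version and no counting tool is named there. The authors deposited raw read counts per RefSeq transcript. The deposited signal is each count times 1 factor per library, used here only for an alternative scaling. The deposited FPKM was used for levels over bodies. The authors' deposited log2 fold changes over 0 h are shrunken, and their adjusted p-values stand beside them. A body runs from the TSS to the end of the transcript, so it includes the downstream part of the TSS window. Isoforms and overlapping genes share reads, and ChIP-seq reads have no strand.

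Counts were tested with edgeR 4.0.16 (TMM, filterByExpr, glmQLFit, glmQLFTest), with time as a factor, on all libraries of a table and with Benjamini-Hochberg adjustment over 31843 to 32774 transcripts. The standard error is the log2 change divided by the square root of F. All 10 members passed the filter in each table. Transcripts without a symbol held 0.0166 to 0.0761 percent of counts. Body-to-TSS ratios used limma 3.58.1. The test code was tested on simulated counts. The alternatives were DESeq2 1.42.0, other scalings, no filter, a replicate block, only the times compared, and leaving libraries out. R was 4.3.3 and Python 3.11.15. Of the other pathway genes, those called at 48 h over 0 h in NTD at the TSS or Ser2p over bodies are named, up to the 3 highest and 3 lowest of each, with Foxh1, Pcsk5 and the Ser5p targets named beyond that after their values were seen. A pair of other genes is not reported here. The members and lists were chosen with earlier results of these data known.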

Additional observations from a re-analysis of the deposited data

Results flagged for a closer look

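Ser5p and total Pol II changed by different amounts between 48 h and 0 h at the TSS of 3 Nodal target genes, as edgeR tested it with an interaction term. The log2 change of Ser5p minus that of NTD was -2.12 at Eomes, -2.48 at Fgf8 and -2.28 at Fgf5. These 3 calls were not refitted under the alternatives or with libraries left out, and the test did not pair libraries by replicate number. In the comparison of 48 h with 6 h this test called none of the target genes. None of the 10 genes was called in either.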

How the results depend on the processing

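The 75 calls of members in the contrasts of counts were refitted 1031 times in all, under the alternatives named with the methods and with libraries left out. They include the calls of the added comparison of 72 h with 24 h. The call was kept in 948 refits, lost in 83 and reversed in 0, and 46 of the 75 calls were kept throughout. At the TSS the calls of Lefty1, Tdgf1, Lrrc2, Inhbb and Gdf3 at 48 h over 0 h and over 6 h were kept in every refit, in NTD and in Ser5p.

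Counts of called members moved by over 1.5 times as follows, and the cause was not tested. The share of all transcripts called was counted for the main fits only. Counts under other settings or with libraries left out therefore do not show whether members moved more than other transcripts. For NTD at the TSS at 24 h the count was 2 in place of 1 with the authors' scale factors, with library totals alone, without the filter and with only the libraries of both times. With only those libraries it was 1 in place of 0 for NTD over bodies at 6 h, 3 in place of 1 at 24 h, 0 in place of 4 at 72 h and 0 in place of 4 for 72 h over 24 h, and for Ser2p it was 2 in place of 0 at 6 h, 5 in place of 3 at 24 h, 0 in place of 2 at 72 h and 1 in place of 3 for 72 h over 24 h. Without 0 h replicate 4 and 72 h replicate 3 together it was 1 in place of 2 for Ser5p at 24 h, 2 in place of 4 for NTD over bodies at 72 h, and for Ser2p 0 in place of 3 at 24 h, 1 in place of 3 at 48 h, 0 in place of 2 at 72 h and 5 in place of 3 for 72 h over 24 h. DESeq2 called 2 in place of 1 for NTD over bodies at 24 h, and for Ser2p 6 in place of 3 for 72 h over 24 h and 7 in place of 4 over all times. The body-to-TSS ratio at 48 h over 0 h had 0 calls in place of 2 with a pseudocount of 0.1 and without the filter, and with a pseudocount of 2 it had 1 call in place of 0 at 72 h and 2 in place of 0 for 48 h over 6 h.

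Leaving out 1 library at a time gave 1 to 3 calls for NTD at the TSS at 24 h, and 3 to 6 for 72 h over 24 h. For Ser5p it gave 1 to 2 at 24 h and 2 to 3 for 72 h over 24 h. For NTD over bodies it gave 0 to 1 at 24 h and 2 to 5 for 72 h over 24 h. For Ser2p it gave 0 to 2 at 24 h, 1 to 3 at 48 h, 0 to 3 at 72 h and 1 to 5 for 72 h over 24 h. For the interaction of Ser5p and NTD at 48 h over 0 h it gave 0 to 1, and for the ratio at 48 h over 0 h 0 to 1. Where this left 1 library at a time, that library was assumed to vary like the other times.

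Libraries of the same replicate number did not deviate together throughout: the correlations of their deviations from the means of their times had a median of 0.078 for NTD at the TSS (32 pairs, -0.12 to 0.31), 0.27 for NTD over bodies (-0.52 to 0.71), 0.092 for Ser5p (37 pairs, -0.32 to 0.44) and 0.090 for Ser2p (-0.59 to 0.72). Libraries of different numbers had lower medians, at -0.029, -0.13, -0.037 and -0.0093 in the same order of tables. Since not every pair of the same number had a correlation over 0.1, the numbers were not taken to pair the libraries. In times with 2 libraries both deviations are equal and opposite. These correlations therefore do not settle whether a number marks a batch. With the replicate block the count was 1 in place of 2 for Ser5p at 24 h, 1 in place of 3 for Ser2p at 24 h and 0 in place of 2 for the ratio at 48 h over 0 h, and other counts stayed within 1.5 times.

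Of the 3 genes most like Tdgf1, Spearman's rho kept 0, of those most like Lefty1 it kept 1 and of those most like Inhbb it kept 1, so these names depend on the measure. At the TSS Inhba and Fst had 3 to 36 reads per NTD library, which limits what can be detected there.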
